A study of Caenorhabditis elegans with 4 samples.

Results

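Subtelomeric NURF-1 peaks are the called peaks nearest to the chromosome ends of Caenorhabditis elegans. They were chosen by position alone, as the peaks on chromosomes II, III, IV, V and X whose midpoint lay within 500 kb of the first or last base, and chromosome I was not part of the comparison. In the peak list made for the whole series, 601 of 11796 peaks met this rule, out of 9436 on the 5 chromosomes. Of the 601, 10 touched the first or last base of a chromosome and were kept as a group apart, which left 591. The other 8835 peaks of the same chromosomes are called interior peaks here. NURF-1 was precipitated with an affinity-purified rabbit polyclonal antibody, SDQ2940, in 2 chromatin immunoprecipitation (ChIP) libraries, beside 2 input DNA libraries. All 4 came from wild-type N2 larvae at the L3 stage, a mixed population of males and hermaphrodites, kept at 20 °C and crosslinked with EGS and formaldehyde. Whole larvae were used, so a peak may come from any tissue. Whether the replicates were separate worm cultures is not stated, and their spread may therefore be only technical.

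NURF-1 is the scaffold subunit of NURF, a nucleosome remodelling complex in which the ISWI-class ATPase ISW-1 slides nucleosomes along DNA. Its mammalian homologue BPTF reads histone marks of active promoters through a PHD finger and a bromodomain. Chromosomes of C. elegans are holocentric, end in short tandem telomeric repeats, and have autosomal arms that carry more repeats and more marks of silent chromatin than the central regions.

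NURF-1 peaks were found throughout the 10 chromosome ends, at a density close to that of the chromosome interiors. The ends held 118.2 ± 36.2 peaks per Mb (SD, n = 10 ends) and the interiors 113.6 ± 30.9 (SD, n = 5 chromosomes). The difference between each end and the interior of its own chromosome averaged 4.55 ± 34.0 peaks per Mb (SD), with 6 ends above and 4 below, and the test was not passed (exact permutation test by sign flips over 10 ends, two-sided p = 0.691, adjusted p = 0.859 over 7 measures). The smallest p that 10 ends allow is 0.00195. The 601 peaks made up 6.37% of the peaks of the 5 chromosomes, and the ends 5.87% of their length. Peaks covered 5.33 ± 1.42% of the bases at ends and 5.26 ± 1.61% in interiors, a difference of 0.0788 ± 1.31 percentage points (SD over 10 ends, exact p = 0.859, adjusted p = 0.859).

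The spread among the ends was larger than their mean difference from the interiors. The right end of III was the richest, with 104 peaks or 208 per Mb, against 162.1 per Mb in the interior of III. The left end of III held 42 peaks, 84 per Mb. All 25 interior windows of 500 kb on III, laid side by side, held more peaks than this left end (52 to 121, median 79), and 3 held more than the right end. No other end stood below all windows of its chromosome.

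On chromosome II the left end held 49 peaks (98 per Mb) and the right end 69 (138 per Mb), on either side of the interior value of 115.6 per Mb. On IV the ends held 66 and 58 peaks, from left to right, or 132 and 116 per Mb beside 117.1 in the interior. On V they held 42 and 56, or 84 and 112 per Mb beside 87.6. On X the left end held 51 peaks and the right end 54, at 102 and 108 per Mb, beside 85.8 per Mb in the interior of X. Of the 33 interior windows of X, 27 held fewer peaks than its left end and 31 fewer than its right end. Chromosomes II, III and V had more peaks at the right end than at the left, and IV the reverse, in all 3 lists. On X the order depended on the list, with 26 peaks at the left and 17 at the right end in replicate 1. With X left out, the mean difference over 8 autosomal ends was 0.88 peaks per Mb.

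**Figure D1:**
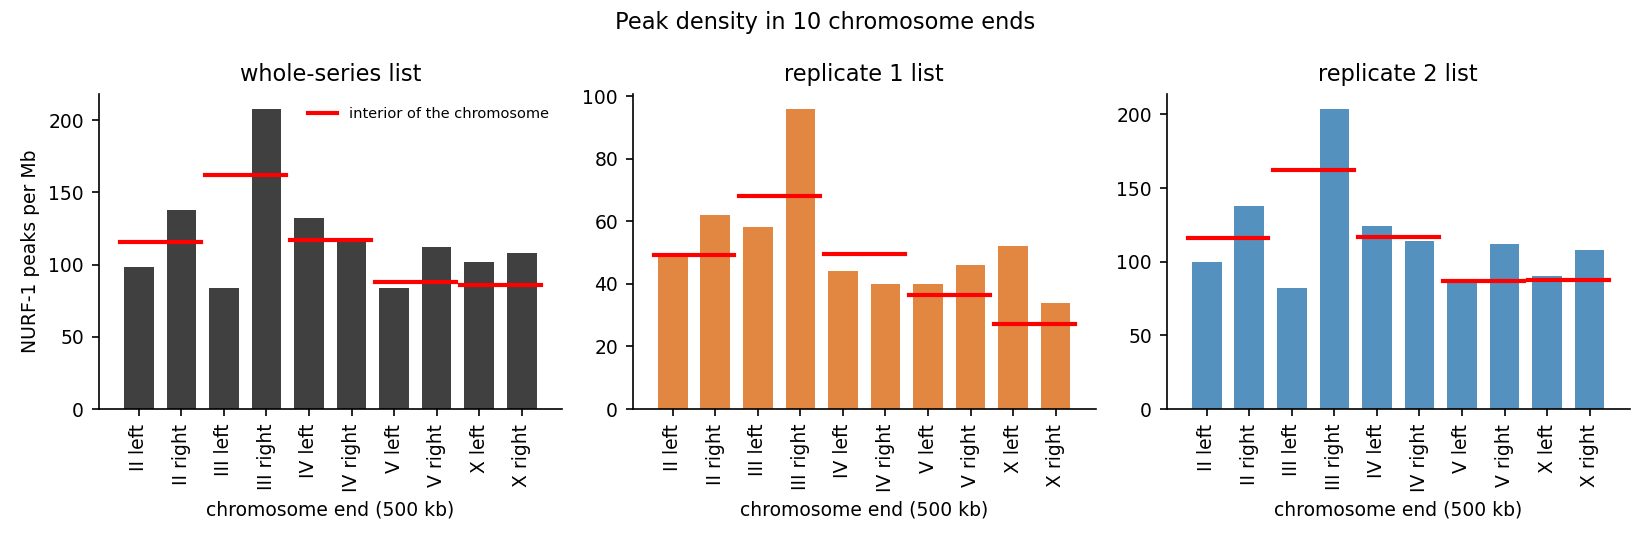
Peaks per Mb in each chromosome end of 500 kb (bars; left and right are the low and high coordinates) in the whole-series, replicate 1 and replicate 2 lists, without peaks that touch an end; red lines give the interior of the same chromosome, and the 3 vertical axes differ. The right end of III is the highest bar in each list, at 208, 96 and 204 peaks per Mb.

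In each replicate list too, the mean density of ends differed from that of interiors by less than the spread among ends. Replicate 1 had 261 subtelomeric peaks and replicate 2 had 580 (mean 420.5 ± 226 SD, n = 2), besides 10 touching an end in each. The 5 chromosomes held 3840 peaks in replicate 1 and 9441 in replicate 2. With those touching included, the ends held 7.06% and 6.25% of them, on 5.87% of the length. Replicate 1 ends averaged 52.2 peaks per Mb, which was 6.12 above the interiors. Replicate 2 ends averaged 116 peaks per Mb, which was 2.11 above. In both lists 7 of 10 ends exceeded their interior. The right end of III was the densest end of both lists, with 48 peaks in replicate 1 and 102 in replicate 2. The left end of III was the least dense in replicate 2, with 41 peaks, but not in replicate 1, where it held 29 peaks and the right end of X 17. At the left end of X the lists diverged. Replicate 1 had 52 peaks per Mb there beside 27.1 in the X interior, and replicate 2 had 90 beside 87.9.

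Along the 500 kb, density changed little on average while single stretches varied widely. In steps of 100 kb from the end inwards, the mean over 10 ends was 126, 125, 127, 101 and 112 peaks per Mb. It was 103.6 between 500 kb and 1 Mb. The last 100 kb of III on the right held 32 peaks, the most of any step, and the first 100 kb of V on the left held 3. On the left end of III, 14 peaks lay in the outermost 100 kb and 3 and 4 in the next steps. The outermost 10 kb held 7 peaks over all 10 ends, without those touching an end.

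**Figure D2:**
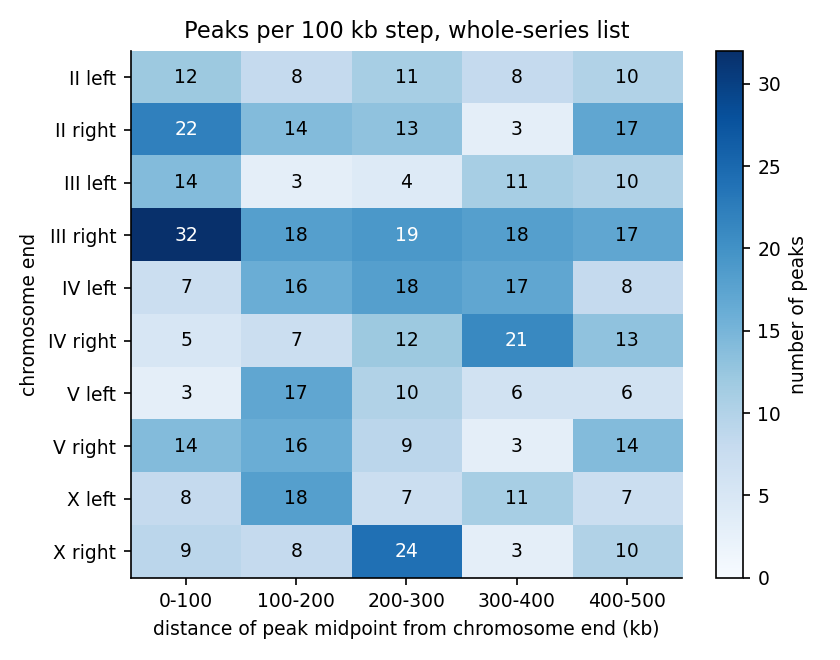
Number of whole-series peaks, without those touching an end, in each 100 kb step from the end of the chromosome (columns) at each of the 10 ends (rows). Counts run from 3 to 32. The outermost step of III right is the darkest, and 5 cells hold 3 peaks each.

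Long stretches without a peak lay inside several ends, counted between neighbouring peaks with the terminal one included. The longest was on the left end of V, where 75.9 kb between V:24494 and V:100437 held no whole-series peak. Replicate 2 lacked peaks over the same stretch, with the same edges. Replicate 1 had none over 93.7 kb from V:10613 to V:104272. At the right end of II the longest gap was 69.4 kb, and at the right end of V 67.8 kb. In the other 7 ends the longest gap ran from 33.7 kb at the right end of III to 61.5 kb at the right end of IV. A neighbouring peak within 1 kb, edge to edge, was present for 275 of 591 subtelomeric peaks (46.5%, 95% Wilson interval 42.5 to 50.6) and for 43.0% of interior peaks. No neighbour within 10 kb was found for 54 (9.14%, 7.07 to 11.7), against 8.49% in the interior. Intervals on shares cover counting error only and treat peaks as independent.

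Scores were spread over the same range at ends as elsewhere. The score is the value that the authors gave each peak, its scale is not stated, and levels are compared only within a list. Subtelomeric peaks had a median score of 17.46 (quartiles 6.75 and 63.05), and interior peaks 16.69 (6.95 and 64.33). The peaks of the 5 chromosomes were cut into 5 equal score groups. From the lowest up, these held 20.6%, 18.4%, 19.1%, 21.5% and 20.3% of the 591 peaks. Medians of the 10 ends averaged 19.5 ± 6.82 (SD). They exceeded the interior of their chromosome by 2.75 ± 6.53 (SD), with 6 ends higher, which was short of the threshold (exact sign-flip p = 0.227, adjusted p = 0.529). The left end of III, with few peaks, had the highest median at 35.21 beside 18.12 in its interior. The left end of IV had the lowest, 11.51 beside 17.46. In the replicate 1 list the medians of ends averaged 11.3 and those of interiors 9.71. In the replicate 2 list they averaged 19.5 and 16.4.

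Median widths were close to those of whole interiors. The median width was 339 bp for subtelomeric and 347 bp for interior peaks. The medians of the 10 ends averaged 351.4 ± 51.4 bp, 4.25 ± 49.9 bp above the interiors (SD, exact sign-flip p = 0.791, adjusted p = 0.859). Against the neighbouring stretch from 500 kb to 1.5 Mb of the same end, the difference was larger, at 42.0 ± 61.4 bp (SD) with 7 of 10 ends wider, and was short of the threshold too (exact sign-flip p = 0.0625, adjusted p = 0.315). The medians of the ends ran from 273 bp at the left end of IV to 445 bp at the left end of III. Widths of at least 1200 bp were reached by 22 subtelomeric peaks (3.72%, 2.47 to 5.57) and by 3.62% of interior peaks.

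Every end carried at least 1 peak among the best-scored of the 5 chromosomes. The best-scored peak of each of the 10 ends scored between 243.7 and 337.54, above 97.5% of the peaks of the 5 chromosomes. They were picked by score, so a high rank follows from the choice. Each overlapped peaks of both replicates, beside 33.7% of all peaks of the 5 chromosomes. Such overlap went with score: interior peaks in both replicates had a median of 93.9, and those in replicate 2 alone 9.66. The highest of the 10 was IV:17277149-17279339, a peak of 2191 bp at 216 kb from the right end, with a score of 337.54. Its best replicate 1 peak scored 194.56 and its best replicate 2 peak 342.27. Next came V:20492998-20494361 (1364 bp, score 328.28) and III:13643321-13644079 (759 bp, score 325.59), at 430 and 140 kb from the right ends.

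On the left ends the best peaks were V:103938-105194 with a score of 319.54, III:354269-355901 with 316.07, IV:384784-386134 with 304.41 and II:254995-256058 with 292.4. The best peak of the right end of II was II:14814731-14815698 with a score of 267.84. The X ends had the lowest best scores of the 10, at 249.26 for X:59069-59633 and 243.7 for X:17479430-17480620. Within replicate 1 these 10 sites scored from 21.91 at the right end of X to 298.92 at the left end of IV. Within replicate 2 they scored from 247.99 to 359.38, the latter at the left end of III. The peak at III:354269-355901 thus had the best score of the 10 in replicate 2, and in replicate 1 a score of 42.17, which was above 87.6% of its list.

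**Figure D3:**
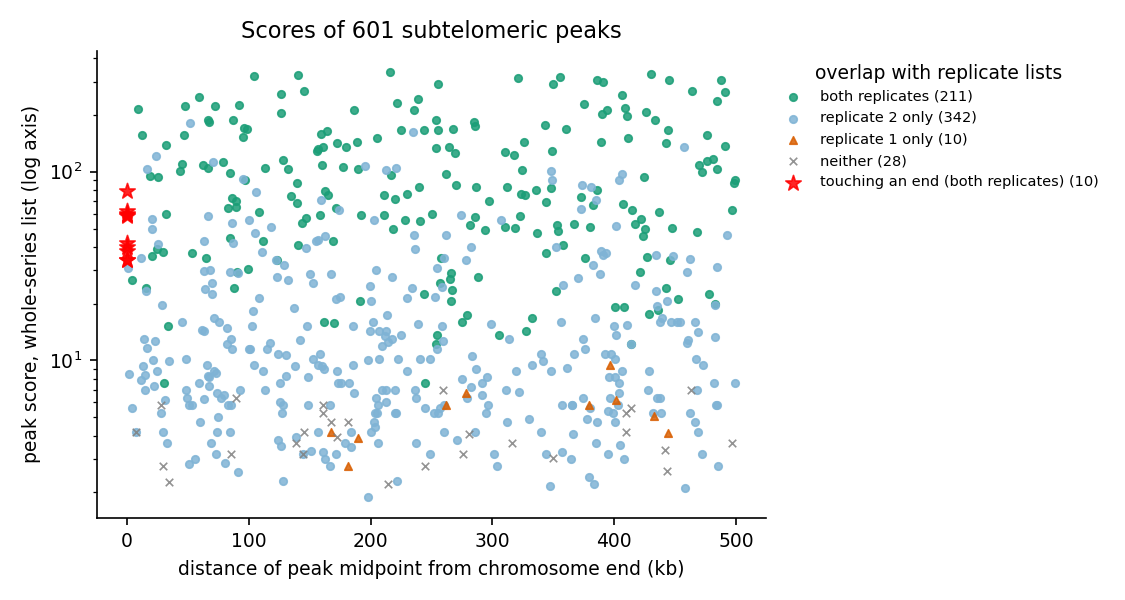
Score of each of the 601 subtelomeric peaks in the whole-series list (log axis) against the distance of its midpoint from the chromosome end, marked by overlap with the replicate lists. The 211 peaks in both replicates lie at 7.56 or above, and the 10 peaks that touch an end (stars) score 33.99 to 79.04.

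Subtelomeric sites were found in the single replicates about as often as interior sites. Of the 591 peaks, 221 overlapped a replicate 1 peak by at least 1 bp (37.4%, 33.6 to 41.4), beside 35.3% of all 9436 peaks of the 5 chromosomes. A replicate 2 peak was overlapped by 553 (93.6%, 91.3 to 95.3), beside 94.7% of all. Peaks of both replicates were overlapped by 211 (35.7%, 31.9 to 39.6), beside 33.7% of all. A further 342 overlapped replicate 2 alone (57.9%, beside 61.0% of all) and 10 replicate 1 alone (1.69%, beside 1.56%). Neither was overlapped by 28 (4.74%, beside 3.76%). Averaged over ends, the share in replicate 1 was 3.33 ± 7.41 percentage points above the interior (SD, n = 10, exact sign-flip p = 0.207, adjusted p = 0.529). The share in both replicates was 3.18 ± 6.59 points above (exact p = 0.160, adjusted p = 0.529). The share in replicate 2 was 1.59 ± 5.71 points lower at ends, a difference written as -1.59 (exact p = 0.457, adjusted p = 0.800). None of the 3 passed the test. With the interior share given by peak score, the differences were 1.79, 1.60 and -1.51 points, in the same order. Of the replicate lists themselves, 232 of 261 subtelomeric replicate 1 peaks overlapped replicate 2 (88.9%, 84.5 to 92.2; 89.9% over the 5 chromosomes). In replicate 2, 217 of 580 overlapped replicate 1 (37.4%, 33.6 to 41.4; 34.2% over the 5 chromosomes).

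Pooled over the 10 ends, the share in replicate 1 was lowest in the outer part. It was 32.5%, 32.8%, 37.8%, 41.6% and 43.8% in the 5 steps of 100 kb from the end inwards, and 35.9% between 500 kb and 1 Mb. Each step pooled 101 to 127 peaks, and the right end of III gave 32 of the 126 outermost. Median scores of the 5 steps were 16.3, 15.9, 15.7, 24.97 and 19.35. The change over the steps was not tested. With ends of 250 kb, the mean difference of the replicate 1 share from the interior was -1.24 percentage points in place of 3.33. By end, the share ran from 29.3% at the right end of IV (19.2 to 42.0) to 50% at the left end of III (35.5 to 64.5). Of the 10 intervals, that of the left end of X alone left out its interior value, with 45.1% (32.3 to 58.6) beside 27.9% in the X interior. That end also had the lowest share in replicate 2, at 80.4% (67.5 to 89.0) beside 94.8%. Of its 51 peaks, 19 overlapped both replicates, 22 replicate 2 alone, 4 replicate 1 alone and 6 neither. Over all peaks of the 5 chromosomes these shares were 33.7%, 61.0%, 1.56% and 3.76%. At the left end of V all 42 peaks overlapped replicate 2, and 17 overlapped replicate 1, beside 94.0% and 35.1% in the interior of V.

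**Figure D4:**
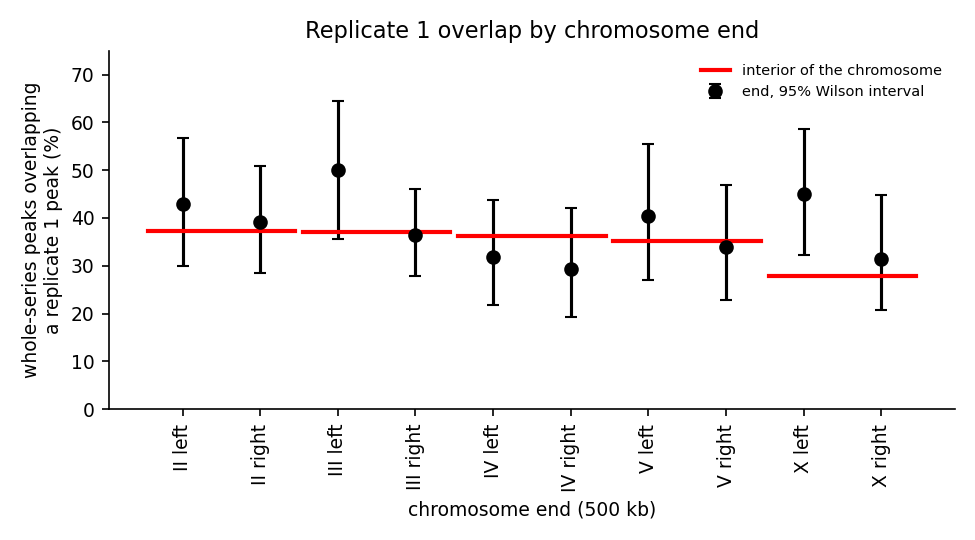
Percent of whole-series peaks in each chromosome end that overlap a replicate 1 peak by at least 1 bp (points, with 95% Wilson intervals), and the same percent in the interior of the chromosome (red lines). The left end of X, at 45.1%, is the only end whose interval leaves out its interior value of 27.9%.

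Peaks found in both replicates had a median score of 82.69 at ends and 93.9 in interiors. Those in replicate 2 alone had 9.68 and 9.66. The 28 subtelomeric peaks in neither replicate list had scores of 2.22 to 6.95 and widths of 146 to 262 bp. The best-scored of them were III:462844-462999 and X:258995-259143, at 6.95 each, and III:89736-89881 at 6.36. High-scored sites missing from replicate 1 were also present. The best was IV:51126-51689, with a score of 180.07 and a replicate 2 score of 196.9. It was followed by III:13548838-13549480 (161.97) and II:14822199-14822667 (135.61), with replicate 2 scores of 169.43 and 138.46.

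The 2 widest subtelomeric peaks had scores well below those of the best-scored sites. The left end of X held a peak of 4781 bp at X:109523-114303 with a score of 43.08, the third widest of all 9436 peaks after 2 interior peaks of V. Replicate 1 had it as 1 peak of 4744 bp with a score of 36.76. Replicate 2 had 5 separate peaks there, 358 to 1718 bp wide, with scores of 7.35 to 10.74. A peak of 3317 bp at X:291972-295288, with a score of 49.02, followed on the same end. It was 3315 bp wide in replicate 1 and 3126 bp in replicate 2, with scores of 34.88 and 22.79. The next widest was IV:17277149-17279339, at 2191 bp, which was also the best-scored of the 591.

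Each of the 10 chromosome ends bore a peak that reached the terminal base itself, in all 3 lists. For right ends this rests on chromosome lengths read from the last peak, which equal the lengths given with the rule. All 10 whole-series terminal peaks overlapped peaks of both replicates, beside 33.7% of all peaks of the 5 chromosomes. Such overlap went with score, as given above. In the whole-series list these peaks were 212 to 335 bp wide (median 268.5) and scored 33.99 to 79.04 (median 50.21). They were thus above at least 63.0% of the peaks of the 5 chromosomes and below the best 20%. Their scores were 27.45 to 76.91 in replicate 1 and 23.71 to 57.62 in replicate 2. These were above at least 79.6% and 57.3% of the peaks that each list had on the 5 chromosomes. The replicate lists differ in length, so percentiles of the 2 lists are not compared. The inner edges of an end's peak differed between the 3 lists by 2 to 61 bp, with a median of 9.5.

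The terminal peak of the left end of X, X:1-335, was the highest, with scores of 79.04 in the whole-series list, 76.91 in replicate 1 and 57.62 in replicate 2. The lowest in the whole-series list was that of the right end of X, X:17718648-17718866, with 33.99, 36.54 and 23.71. The others, in the whole-series list, were III:13783418-13783700 (61.78), V:20923884-20924149 (59.83), IV:17493508-17493793 (58.89), II:1-266 (58.35), II:15279075-15279345 (42.07), V:1-285 (39.91), IV:1-230 (37.84) and III:1-212 (34.04). On III, IV and V the right end thus scored higher than the left, and on II and X the left, in this list and in both replicates.

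Terminal peaks were narrow for their score. They can extend to 1 side only, and whether this accounts for their width was not tested. Among 1399 interior peaks with scores between 33.99 and 79.04 the median width was 538 bp, and 222 of them (15.9%, 14.0 to 17.9) were no wider than the widest terminal peak. In replicate 1, 36.2% of 538 such interior peaks were no wider than its widest terminal peak, and in replicate 2, 24.4% of 1402 were. No value of the input libraries was used here. Whether input DNA has the same peaks at the ends was not tested.

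**Figure D5:**
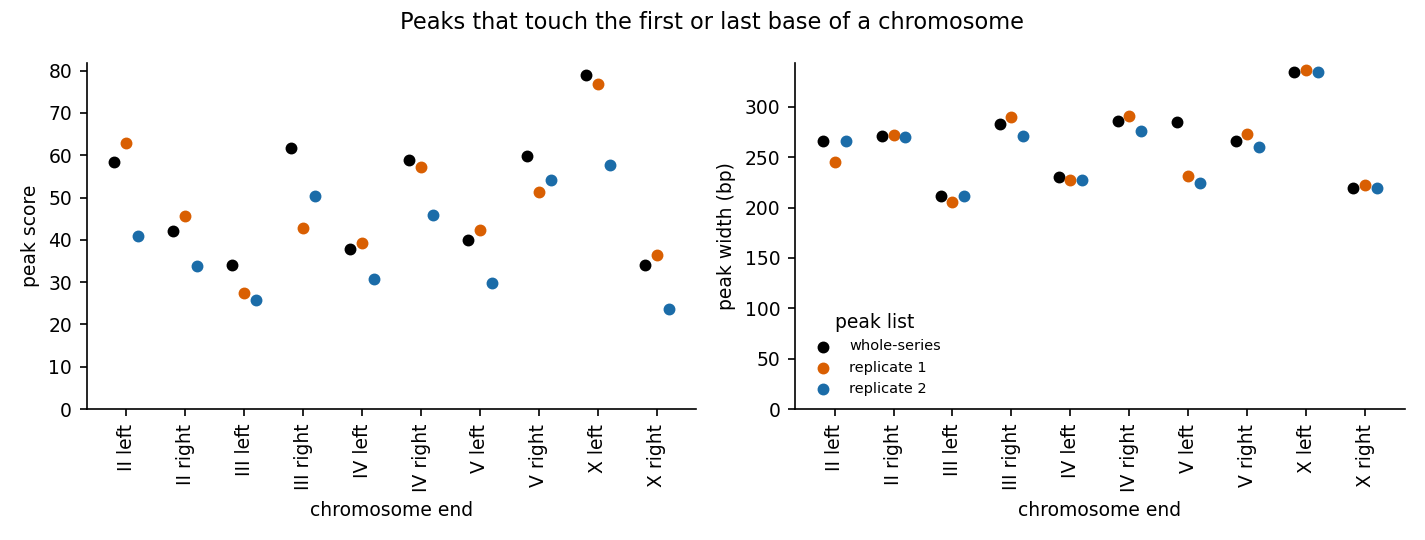
Score (left) and width in bp (right) of the peak that touches the terminal base at each of the 10 chromosome ends, in the whole-series (black), replicate 1 (orange) and replicate 2 (blue) lists. Widths lie between 206 and 337 bp in every list, and the left end of X has the highest score in each.

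Beyond the terminal peak, the next peak followed after a median gap of 9.13 kb in the whole-series list. The shortest gap was 0.4 kb, at the left end of II, where the next peak was II:667-972 with a score of 31.08. The longest was 50.9 kb, at the left end of IV, where the next peak was IV:51126-51689. This set of 10 next peaks was singled out after its values were seen. All 10 overlapped a replicate 2 peak, beside 94.7% of all peaks of the 5 chromosomes. Beside 35.3% of all for replicate 1, 2 of the 10 overlapped a replicate 1 peak, at the right end of III and the left end of V. The latter, V:7825-9426, was 1602 bp wide and scored 213.86, with scores of 58.71 in replicate 1 and 239.14 in replicate 2. The other 9 scored between 4.18 and 180.07.

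At the 500 kb limit, the nearest peaks inside it lay 451.6 to 499.4 kb from the end and had a median score of 88.955 (2.75 to 263.78, 10 ends). The nearest outside lay at 500.2 to 542.3 kb and had a median of 9.43 (4.7 to 254.67). Of these, 7 of 10 inside and 2 of 10 outside overlapped replicate 1, beside 35.3% of all peaks of the 5 chromosomes. These are 20 single peaks, and the full stretches on either side were closer to each other: the median score was 19.35 at 400 to 500 kb and 14.4 between 500 kb and 1 Mb, and 43.8% and 35.9% of peaks overlapped replicate 1.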

How the data were processed

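ChIP sequencing peaks of 2 NURF-1 libraries were analysed. Per the submitters' processing notes, BWA placed the reads on ce10. Per the file headers, the build of the coordinates is WormBase WS220. The deposited files name MACS as the source of the peaks. Its version and thresholds, its use of input and the making of the whole-series list were not given in the sources used here. Each peak carries a deposited score of unstated scale and a deposited first and last base. The authors deposited no counts in these lists, so the depth behind a peak is unknown.

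The length of a chromosome was the last base of its last peak, the same in all 3 lists. Right ends therefore carry a terminal peak by this definition, but each length also equals the one set for choosing the peaks. An end was 500 kb. Each end was compared with the interior of its own chromosome, and the mean of the 10 differences was tested with an exact two-sided sign-flip permutation test, with Benjamini-Hochberg adjustment over 7 measures. Ends of the same chromosome share an interior. With 2 ChIP libraries no test between samples was possible. Overlap meant at least 1 bp. Shares carry 95% Wilson intervals. Regions named are the terminal peaks, the best-scored peak of each end, the 3 widest, the 3 best-scored missing from replicate 1 and the 3 best-scored missing from both replicates; others were chosen after their values were seen. The members, measures and rules were chosen with earlier results of these data known. The tools were SciPy 1.17.1, pandas 2.3.3, NumPy 2.4.6 and matplotlib 3.10.9 under Python 3.11.15, and the computations were tested on simulated data. The reference gene table has a different build, WBcel235, so no gene is named and no sequence is shown.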

Additional observations from a re-analysis of the deposited data

How the results depend on the processing

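The 7 measures were recomputed under 63 alternatives, all planned, and none passed at an adjusted p of 0.05 (adjusted p 0.137 to 1; 2 had an unadjusted p under 0.05). In 51 the direction was kept, and 12 turned it. With ends of 1 Mb, density was -3.47 peaks per Mb, bases in peaks -0.41 percentage points and median width -13.05 bp relative to interiors. With ends of 250 kb, the share in replicate 1 was -1.24 points and in both replicates -0.70. Against the stretch from 500 kb to 1.5 Mb of the same end, the share in replicate 2 was 0.29 points higher. Median width grew to 42 bp (exact sign-flip p = 0.0625) and median score to 4.72 (exact p = 0.0898). Density grew to 11.2 peaks per Mb (exact p = 0.188) and bases in peaks to 0.69 points (exact p = 0.135). The shares in replicate 1 and in both replicates shrank, to 2.83 and 2.58 points. With terminal peaks included, median width was -0.30 bp. Among peaks at or above the median score, median width was -46.35 bp (exact p = 0.0469, adjusted p = 0.137) and the share in replicate 2 was 0.0730 points higher (exact p = 0.0312, adjusted p = 0.137). That share averaged 100% at ends and 99.93% in interiors. No end could therefore lie below its interior, and this test cannot decide on a difference. On 4 autosomes, bases in peaks were -0.20 points. From either replicate list alone, bases in peaks ran from -0.00196 to 0.37 points, median width from -1.95 to 11.95 bp, density from 2.11 to 6.12 peaks per Mb and median score from 1.60 to 3.11. The cause of these turns was not tested. Over 5 chromosomes as units the exact sign-flip test cannot go below p = 0.0625. No paired analysis was possible because the input libraries had no peak values here. Each end held 42 to 104 peaks, which limits what its median or share can show.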
